A study of Mus musculus with 18 samples.

Results

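A set of 10 genes of the RGS family and its partners were described in the mouse striatum: Rgs2, Rgs4, Rgs7, Rgs7bp, Rgs8, Rgs9, Rgs10, Rgs14, Rgs16 and Rgs20. They were the rows of the count table whose Ensembl identifiers map to these symbols, 10 of 55421 genes, and all 10 were among the 20914 genes that had enough counts to be tested. RNA came from dissected striatum of 18 mice aged 12 to 14 months, labelled C57BL/6, with 1 library per mouse. The groups were 5 WT mice, 5 zQ175 mice, 3 CK2a'(+/-) mice and 5 zQ175:CK2a'(+/-) mice. zQ175 is a knock-in model of Huntington's disease in which the mouse huntingtin gene carries an expanded CAG repeat in every cell, and per the study's methods it was used as a heterozygote. CK2a'(+/-) mice lack an allele of Csnk2a2, which encodes the CK2a' catalytic subunit of protein kinase CK2, in the whole body. The study's methods say that the CK2a' line, which began on a mixed 129/SvEv and C57BL/6J background, was bred over many generations with the other lines, and give C57BL/6J for all mice used. Females and males were not balanced across genotypes, and the labels give no sex for a library.

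RGS proteins speed up the hydrolysis of GTP by G protein alpha subunits and so shorten the signal of G protein-coupled receptors. Rgs9 and Rgs7 belong to the R7 subfamily, whose proteins are obligate partners of the beta subunit Gnb5 and are held at the membrane by Rgs7bp, and Rgs9 is known for its high level in striatal projection neurons, where it acts on dopamine and opioid receptor signals. Rgs2, Rgs4, Rgs8 and Rgs16 are small proteins of the R4 subfamily, Rgs10 and Rgs14 belong to the R12 subfamily, and Rgs20 belongs to the RZ subfamily, which acts on Gnaz.

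The labels were checked on the targeted gene first. Csnk2a2 lay between 14.7 and 19.9 CPM (counts divided by the TMM-scaled library size) in the 8 mice with 1 CK2a' allele and between 29.4 and 37.5 CPM in the 10 mice with 2 alleles, without overlap. Total counts ranged from 13612381 to 22702547 per library. Striatal projection neuron markers were present in every library, with a summed level of 2221 to 8886 CPM over 13 genes. The zQ175 libraries 1 and 5 stood apart in markers of neighbouring regions. The summed CPM of 8 thalamic neuron markers was 1622 in zQ175 mouse 1 and between 142 and 836 in the other 17 mice. That of the 11 cortical excitatory neuron markers tested, of 12 listed, was 575 in zQ175 mouse 5 and between 154 and 348 in the others. The lists were Prkcd, Slc17a6, Tcf7l2 and the like for thalamus and Slc17a7, Tbr1 and the like for cortex. Since whole tissue was sequenced, fewer cells of a type and less RNA per cell cannot be told apart in any value given here.

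In all, 6 of the 10 genes lie on chromosome 1 of GRCm38. Rgs8 and Rgs16 are neighbours there, with 40025 bases between them. Promoters of 8 of the genes were matched in RefSeq (GRCm38.p6), each taken from 250 bases before to 50 bases after the start of the gene. The promoters of Rgs4 and Rgs7bp are shown because these genes varied together across the mice more closely than any other pair of the 10, and those of Rgs9 and Rgs10 because these passed a test in zQ175 against WT mice, Rgs10 in both tools and Rgs9 in DESeq2. Capitals mark the letters TGACG (the core of the cAMP response element), GGGCGG (the GC box) and TATAAA (the TATA box), on either strand, with overlapping matches counted. Each sequence runs 5′ to 3′ on the strand of its gene.
Rgs4: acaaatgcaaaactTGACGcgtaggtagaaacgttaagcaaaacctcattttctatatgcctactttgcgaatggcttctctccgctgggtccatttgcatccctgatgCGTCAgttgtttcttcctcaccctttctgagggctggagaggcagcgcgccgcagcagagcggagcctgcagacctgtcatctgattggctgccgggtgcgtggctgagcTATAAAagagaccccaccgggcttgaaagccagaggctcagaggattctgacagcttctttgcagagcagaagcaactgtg
Rgs7bp: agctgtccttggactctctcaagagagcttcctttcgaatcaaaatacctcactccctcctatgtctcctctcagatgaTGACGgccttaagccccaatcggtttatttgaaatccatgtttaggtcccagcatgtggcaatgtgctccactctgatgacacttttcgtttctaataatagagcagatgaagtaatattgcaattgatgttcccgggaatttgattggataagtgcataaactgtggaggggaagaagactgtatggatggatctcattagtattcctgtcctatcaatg
Rgs9: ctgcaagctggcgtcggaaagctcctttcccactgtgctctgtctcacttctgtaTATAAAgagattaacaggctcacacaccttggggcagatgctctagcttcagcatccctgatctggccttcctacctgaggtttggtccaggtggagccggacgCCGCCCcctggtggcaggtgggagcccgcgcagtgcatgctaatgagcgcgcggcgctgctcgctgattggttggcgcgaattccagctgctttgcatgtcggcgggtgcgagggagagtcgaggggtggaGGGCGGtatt
Rgs10: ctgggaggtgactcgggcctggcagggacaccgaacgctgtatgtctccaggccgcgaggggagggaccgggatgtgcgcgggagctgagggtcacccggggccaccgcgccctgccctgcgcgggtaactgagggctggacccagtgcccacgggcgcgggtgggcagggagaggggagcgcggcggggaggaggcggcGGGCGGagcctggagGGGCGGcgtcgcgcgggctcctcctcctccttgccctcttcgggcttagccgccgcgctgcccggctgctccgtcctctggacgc
The Rgs4 promoter lies on the minus strand at chr1:169747593-169747892 and that of Rgs7bp on the minus strand at chr13:105054881-105055180. The Rgs9 promoter lies on the minus strand at chr11:109298132-109298431 and that of Rgs10 on the minus strand at chr7:128418123-128418422. Rgs4 held TGACG at 2 places and TATAAA with its first base 31 bases before the start. Rgs7bp held TGACG at 1 place and neither of the others. Rgs9 held the GC box at 2 places and TATAAA 195 bases before the start. Rgs10 held the GC box at 2 places, 50 and 35 bases before the start, and no TATAAA. Of 32851 promoters of 300 bases, 20.8% held TGACG, 35.7% held GGGCGG and 13.6% held TATAAA. These shares count any place and either strand, so that such letters are frequent. How often they lie at a given distance from the start was not counted. The matches are descriptions of these letters, and binding was not tested. The start that RefSeq gives for Rgs10 lies inside the gene as Ensembl draws it.

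Levels were compared between genes only as RPKM, the CPM divided by the gene length in kilobases. In WT mice the 10 genes spanned a wide range. Rgs4 was the highest at 99.9 RPKM ± 24.9 (SD, n = 5), followed by Rgs9 at 72.0 ± 23.9 and Rgs7bp at 63.7 ± 16.5. After these came Rgs10 at 19.2 ± 1.62, Rgs2 at 15.9 ± 2.01, Rgs8 at 12.7 ± 1.17, Rgs7 at 9.89 ± 0.406, Rgs20 at 8.98 ± 3.27 and Rgs14 at 6.31 ± 2.13. Rgs16 was the lowest at 2.57 ± 1.81 RPKM. The order broke at 2 places where the ranges of neighbours did not overlap, between Rgs7bp and Rgs10 and between Rgs8 and Rgs7. Rgs9 was above Rgs7bp in 3 of 5 WT mice and Rgs7 above Rgs20 in 3 of 5, so the order of these pairs was not fixed within the spread between mice. In zQ175 and in zQ175:CK2a'(+/-) mice, mean RPKM of Rgs7bp was above that of Rgs9 and that of Rgs2 above that of Rgs10, the reverse of WT and CK2a'(+/-) mice.

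**Figure D1:**
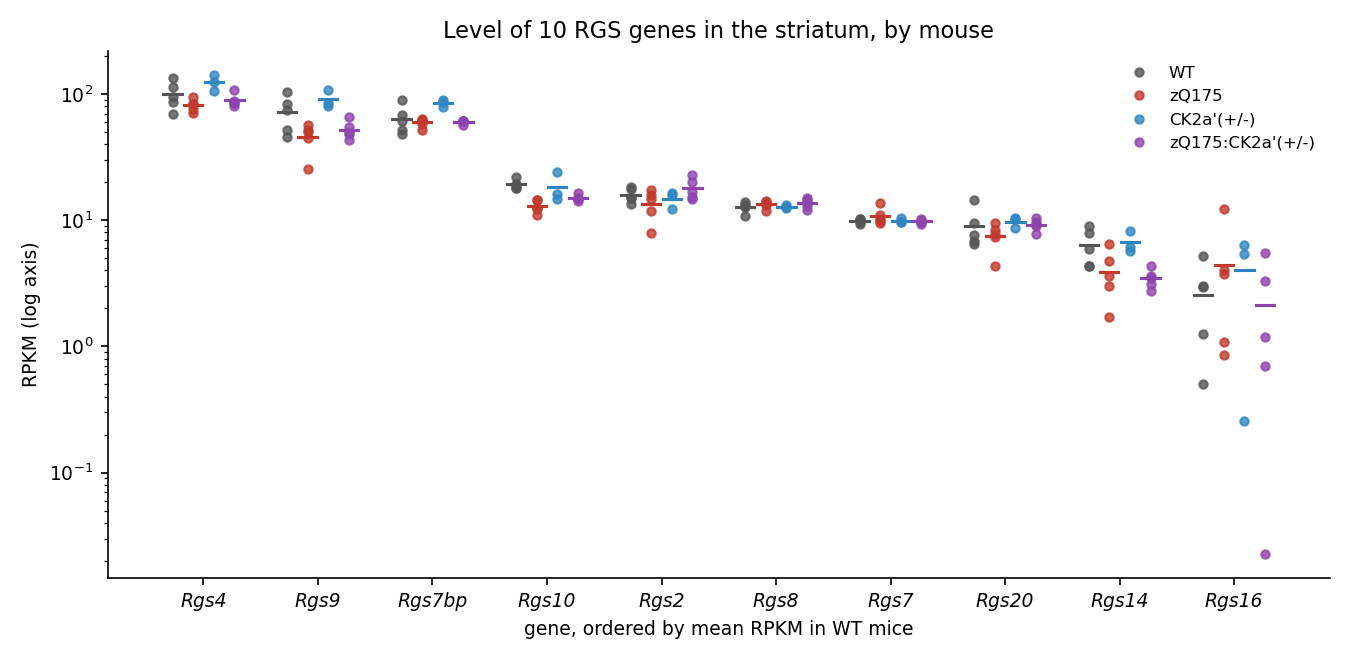
Level of the 10 genes in each of 18 mice as RPKM on a log axis, with genes ordered by their mean in WT mice, points for mice, colours for genotypes and short lines for group means. Rgs4, Rgs9 and Rgs7bp lie above the other genes, and Rgs16 ranges most widely within each genotype.

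The genes also differed in how steady they were from mouse to mouse. Rgs7 (55.9 to 82.2 CPM over 18 mice) and Rgs8 (103 to 146 CPM) were the steadiest of the 10. The SD of their log2 CPM within genotypes was 0.12 for Rgs7 and 0.12 for Rgs8, against a median of 0.34 over all genes tested. Rgs16 was the least steady, from 0.0531 CPM (1 count) in zQ175:CK2a'(+/-) mouse 4 to 28.6 CPM (610 counts) in zQ175 mouse 1, with an SD of 1.93 on the log2 scale. Its SD stood at the 99.8th percentile of all genes tested.

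The comparison of zQ175 with WT mice asks how the Huntington's disease allele goes with the level of these genes. Rgs10 was lower in zQ175 mice, at 0.670 of the WT level, and it was the 1 member of 10 that passed edgeR's quasi-likelihood test at a false discovery rate of 0.1 (adjusted p = 0.0469). Of all genes tested, 1.1% passed. Rgs9, Rgs14 and Rgs4 had estimates below WT with unadjusted p under 0.05 and did not pass after adjustment. The median log2 fold change of the 10 genes was -0.25, beside 0.0042 over all genes tested, and 7 of 10 estimates were below 0.

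Rgs10, whose product acts on the Gi class of alpha subunits and is known from microglia as well as neurons, stood at 37.5, 32.1, 33.3, 31.0 and 30.6 CPM in the 5 WT mice. In the 5 zQ175 mice it stood at 18.8, 21.4, 21.0, 24.7 and 24.5 CPM. Every zQ175 mouse was below every WT mouse, a separation found in the lower direction in 1.19% of all genes tested. The log2 fold change was -0.58 (SE 0.12, 95% interval -0.82 to -0.33). DESeq2 gave an adjusted p of 0.00207 for Rgs10. With Xist as covariate the log2 fold change was -0.56 (adjusted p = 0.0629 in edgeR). The edgeR call was kept in 15 of 18 fits that left out 1 library. It was lost without WT mouse 1 (log2 fold change -0.54, adjusted p = 0.119 in edgeR), WT mouse 3 (-0.57, 0.155) or zQ175 mouse 5 (-0.62, 0.106). Of all genes, 10, 0 and 0 passed in these fits, in that order. In a fit of the WT and zQ175 libraries alone, in which no gene of 18529 passed, the log2 fold change of Rgs10 was -0.58 (adjusted p = 0.145 in edgeR). With the cortical marker score as covariate, where no gene of 20914 passed, it was -0.61 (adjusted p = 0.337 in edgeR). Without both zQ175 mice 1 and 5, an alternative chosen after seeing the data, it was 0.245, with a log2 fold change of -0.56.

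In all, 5 of 8 oligodendrocyte markers passed the test in zQ175 against WT mice, all lower, and the summed level of the 8 was 3678 to 5513 CPM in zQ175 mice and 5624 to 7715 CPM in WT mice, without overlap. Of the microglia list 1 of 7 genes tested passed, C1qa, which was lower, and the microglia sums overlapped (169 to 223 CPM in zQ175, 207 to 243 CPM in WT). In edgeR, 0 of 8 astrocyte markers passed and 1 had an unadjusted p under 0.05. The part of these glial markers in the difference of Rgs10 was not tested.

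Rgs9, the R7 member of striatal projection neurons, stood at 536, 664, 480.0, 330.5 and 291 CPM in WT mice. It stood at 164, 362, 322, 332 and 284 CPM in zQ175 mice. The groups overlapped, with WT mice 4 and 5 inside the range of the zQ175 mice and zQ175 mouse 1 far below the others. The log2 fold change was -0.65 (SE 0.20, 95% interval -1.07 to -0.23), with an adjusted p of 0.149 in edgeR and 0.0902 in DESeq2. Without WT mouse 5 it was -0.78 (adjusted p = 0.0875 in edgeR), and without both zQ175 mice 1 and 5 it was -0.44 (adjusted p = 0.447 in edgeR). With edgeR, 4 of the 10 genes had an unadjusted p under 0.05, against 13.9% of all genes tested, and with DESeq2 2 passed, Rgs9 and Rgs10, against 5.26% of all genes.

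Rgs14, an R12 member that also binds Ras and is known from hippocampal neurons, stood at 33.7, 38.4, 25.1, 18.4 and 18.3 CPM in WT mice and at 7.26, 12.7, 19.99, 15.2 and 27.2 CPM in zQ175 mice. The ranges overlapped widely. The log2 fold change was -0.70 (SE 0.26, adjusted p = 0.226 in edgeR), and with the cortical marker score as covariate it was -1.32 (adjusted p = 0.317). zQ175 mouse 5, the mouse with the highest cortical sum, was also the highest of its group for Rgs14. The summed level of the 6 hippocampal neuron markers tested, of 8 listed, was 867 CPM in it, beside 488 to 644 CPM in the other 4 zQ175 mice.

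Among the R4 genes, Rgs4 had a log2 fold change of -0.29 in zQ175 against WT mice (SE 0.14, adjusted p = 0.339 in edgeR), with 219 to 291 CPM in zQ175 and 216 to 417 CPM in WT mice, and without WT mouse 2 the change was -0.18. Rgs2, which acts on Gnaq, had an estimate of -0.24 (95% interval -0.58 to 0.11), with the lowest value of all mice, 28.5 CPM, in zQ175 mouse 1, without which the estimate was -0.092. Rgs8 had an estimate of 0.08 (95% interval -0.09 to 0.24), or 0.0079 without WT mouse 1, and the R7 gene Rgs7 one of 0.13 (95% interval -0.04 to 0.31), the narrowest intervals of the 10, and without zQ175 mouse 1 the estimate of Rgs7 was 0.034. Rgs7bp, the membrane anchor, had an estimate of -0.09 (95% interval -0.34 to 0.15), and a difference as large as that of Rgs10 lay outside its interval. Rgs20 had an estimate of -0.27 (95% interval -0.67 to 0.13), and one of -0.043 without WT mouse 2. The exons of Rgs20 overlap those of Atp6v1h on the other strand. The strand setting of the read counting was not given, so its counts may hold reads of that gene.

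Loss of a CK2a' allele in mice with the zQ175 allele was examined in zQ175:CK2a'(+/-) mice, first against WT mice. None of the 10 genes passed in edgeR, beside 0.0143% of all genes tested, and the lowest adjusted p was 0.330. Of the 10, 3 had an unadjusted p under 0.05, all lower (9.13% of all genes): Rgs9, Rgs10 and Rgs14. DESeq2 passed 1, Rgs14 (adjusted p = 0.0991), beside 0.725% of all genes. All comparisons come from the same 18 mice and share groups, so they are not independent of each other.

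Rgs10 stood at 25.6, 25.2, 25.5, 28.1 and 24.4 CPM in zQ175:CK2a'(+/-) mice, again with every mouse below every WT mouse (in this direction 0.899% of all genes). The log2 fold change against WT was -0.35 (SE 0.12, adjusted p = 0.383 in edgeR). The oligodendrocyte sum was 4172 to 5646 CPM in these mice, overlapping at its top with the WT range given above. Rgs9 stood at 349, 314, 310.2, 419 and 275 CPM, with a log2 fold change of -0.46 (SE 0.20, adjusted p = 0.495 in edgeR). Rgs14 stood at 15.4, 18.5, 13.2, 14.9 and 11.7 CPM, a tighter group than in zQ175 mice, with a log2 fold change of -0.86 (SE 0.26, adjusted p = 0.330 in edgeR). The Rgs14 values reached just above the lowest WT mice, 18.3 and 18.4 CPM.

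The direct comparison of zQ175 with zQ175:CK2a'(+/-) mice asks whether the second CK2a' allele mattered in the presence of the zQ175 allele. None of the 10 genes passed in edgeR (0.0143% of all genes did) or in DESeq2 (39 of 26903 genes did). With edgeR, 1 had an unadjusted p under 0.05 (6.27% of all genes). That gene was Rgs2, whose levels were 28.5, 63.2, 57.1, 53.1 and 43.2 CPM in zQ175 mice and 55.6, 61.2, 73.2, 83.4 and 53.8 CPM in zQ175:CK2a'(+/-) mice. The groups overlapped, and the log2 fold change of Rgs2 was -0.42 (SE 0.17, adjusted p = 0.694 in edgeR), -0.28 without zQ175 mouse 1 and -0.18 without both zQ175 mice 1 and 5. For Rgs10 the estimate was -0.22 (95% interval -0.47 to 0.02) and for Rgs9 it was -0.19 (95% interval -0.61 to 0.23), and -0.039 without zQ175 mouse 1. For Rgs14 it was 0.16 (95% interval -0.39 to 0.71), and without zQ175 mouse 5 it was -0.10.

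**Figure D2:**
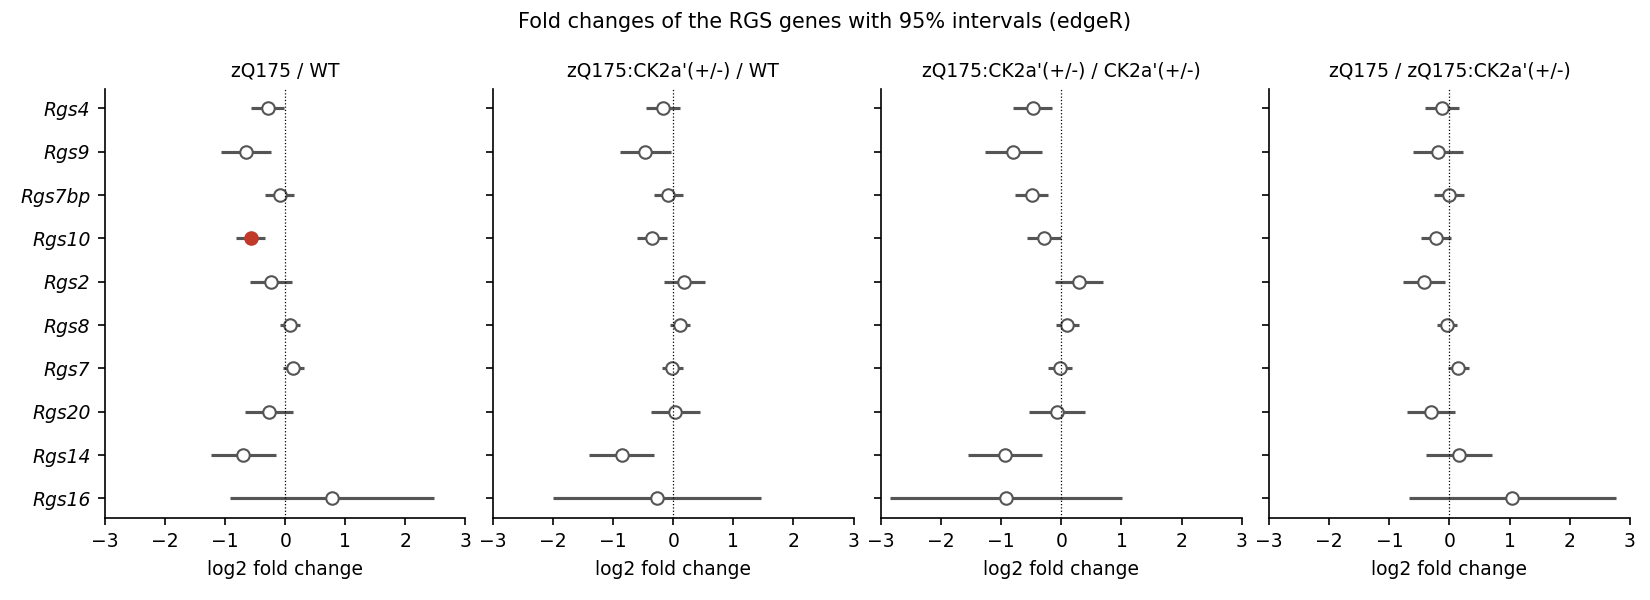
Log2 fold changes of the 10 genes with 95% intervals in 4 comparisons (horizontal axis, first group over second), with genes in the order of their level in WT mice and filled points where the adjusted p was under 0.1. The filled point is Rgs10 in zQ175 against WT, at -0.58, and the intervals of Rgs16 are the widest.

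The zQ175 allele was also examined within mice that lack a CK2a' allele, by comparing zQ175:CK2a'(+/-) with CK2a'(+/-) mice. The estimates of Rgs9, Rgs14, Rgs7bp, Rgs4 and Rgs10 were below 0 with unadjusted p under 0.05, 5 of 10 beside 9.19% of all genes tested. None of the 10 passed in edgeR (0.593% of all genes did). DESeq2 passed 2, Rgs7bp (adjusted p = 0.0492) and Rgs14 (0.0908), beside 1.47% of all genes. The median log2 fold change of the 10 was -0.38, beside 0.0041 over all genes tested, and 8 of 10 estimates were below 0, while 50.7% of those of all genes were above 0.

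Between these groups 3 genes did not overlap, Rgs7bp, Rgs9 and Rgs14, all lower with the zQ175 allele, where 4.48% of all genes were separated in this direction. Rgs7bp stood at 563, 633 and 606 CPM in CK2a'(+/-) mice and at 430.3, 401, 429, 435 and 432 CPM in zQ175:CK2a'(+/-) mice. Its log2 fold change was -0.50 (SE 0.13, 95% interval -0.78 to -0.22, adjusted p = 0.143 in edgeR). The 5 zQ175:CK2a'(+/-) mice were close together for this gene, within 3.24% (SD as a percentage of the mean).

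Rgs9 stood at 541, 515 and 684 CPM in CK2a'(+/-) mice, with a log2 fold change of -0.80 (SE 0.23, adjusted p = 0.170 in edgeR). Rgs14 stood at 26.1, 24.2 and 34.7 CPM in these mice, with a log2 fold change of -0.94 (SE 0.30, adjusted p = 0.236 in edgeR). For Rgs4 the change was -0.48 (SE 0.15, adjusted p = 0.258 in edgeR), with 325, 384 and 440.4 CPM in CK2a'(+/-) mice and 332 CPM in the highest zQ175:CK2a'(+/-) mouse, so that these groups overlapped. In an edgeR fit of the libraries of these genotypes alone, 4 of the 10 genes passed, Rgs4, Rgs7bp, Rgs9 and Rgs14, with adjusted p between 0.00252 and 0.0439, and 461 of 18974 genes passed in all.

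Rgs10 did not separate these groups, at 27.7, 25.3 and 41.4 CPM in the CK2a'(+/-) mice. Mouse 3 of this group was the highest of all 18 mice, and the log2 fold change was -0.29 (SE 0.14) with all libraries and -0.04 without CK2a'(+/-) mouse 3.

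Glial marker sums were also separated between these groups. The summed astrocyte markers were 3317 to 3644 CPM in zQ175:CK2a'(+/-) and 3965 to 4462 CPM in CK2a'(+/-) mice, and the oligodendrocyte sums were 4172 to 5646 CPM and 5791 to 7269 CPM, both without overlap. By single genes, edgeR passed 0 of 8 astrocyte markers, of which 5 were lower at an unadjusted p under 0.05, and 1 of 8 oligodendrocyte markers, which was lower. The projection neuron sums were separated too, at 3554 to 4778 CPM in zQ175:CK2a'(+/-) and 6320 to 8575 CPM in CK2a'(+/-) mice. Of 13 projection neuron markers all had estimates below 0, 3 passed in edgeR and 9 had an unadjusted p under 0.05. The part of these glial and neuronal markers in the differences of Rgs7bp, Rgs9 and Rgs14 was not tested.

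**Figure D3:**
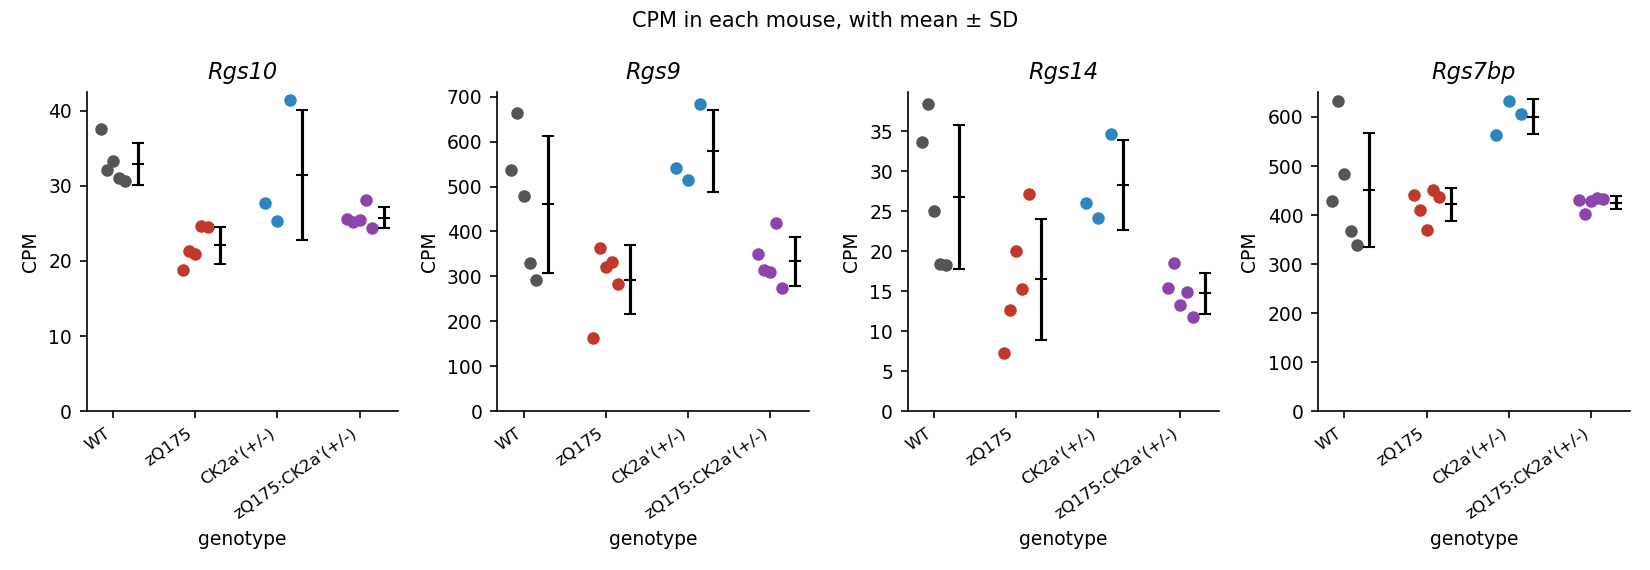
CPM of Rgs10, Rgs9, Rgs14 and Rgs7bp in each mouse by genotype (linear axes from 0), with points for mice and bars for mean ± SD. Rgs10 is lower in all zQ175 mice (18.8 to 24.7 CPM) than in all WT mice (30.6 to 37.5 CPM), and Rgs7bp is higher in the 3 CK2a'(+/-) mice than in either group with the zQ175 allele.

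Without the zQ175 allele, the CK2a'(+/-) mice were compared with WT mice. None of the 10 genes passed in edgeR, where 0.0143% of all genes did, and none in DESeq2, where 11 of 37559 genes did. Of the 10, 1 had an unadjusted p under 0.05 (4.48% of all genes), Rgs7bp, with a log2 fold change of 0.41 (SE 0.14, adjusted p = 0.999 in edgeR). Its levels in the WT mice were 429, 633, 485, 367 and 339 CPM, and WT mouse 2 lay at the top of the CK2a'(+/-) range. Without WT mouse 2 the change of Rgs7bp was 0.57, with an adjusted p of 0.0685 in edgeR. Rgs4 (0.31) and Rgs9 (0.33) also had positive estimates and did not pass. Without 1 mouse these ran from 0.20 (without CK2a'(+/-) mouse 3) to 0.44 (without WT mouse 2) for Rgs4 and from 0.20 to 0.51 for Rgs9, without the same mice.

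The interaction tests whether the zQ175 difference depends on CK2a' allele number. It passed for none of the 10 genes in edgeR (0.00478% of all genes) or DESeq2 (19 of 18391 genes). Of the 10, 1 gene, Rgs7bp, had an unadjusted p under 0.05 (5.39% of all genes), with an interaction of -0.40 on the log2 scale (SE 0.18, adjusted p = 0.916 in edgeR). Rgs2 had an interaction of 0.52 (SE 0.25) with the same adjusted p, and of 0.28 without both zQ175 mice 1 and 5 and 0.33 with Xist as covariate. With 3 CK2a'(+/-) mice the intervals were wide, -0.78 to -0.03 for Rgs7bp and -0.01 to 1.05 for Rgs2.

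Rgs16 gave no call in any comparison, and its groups overlapped in all of them. Its levels were 2.94, 1.17, 12.1, 6.88 and 6.997 CPM in WT mice and 28.6, 2.55, 9.41, 8.77 and 1.99 CPM in zQ175 mice. They were 12.5, 15.01 and 0.601 CPM in CK2a'(+/-) mice and 1.63, 2.80, 7.65, 0.0531 and 12.9 CPM in zQ175:CK2a'(+/-) mice. High and low mice occurred in every genotype. The log2 fold change in zQ175 against WT was 0.78 (SE 0.82), and without zQ175 mouse 1 it was -0.09. Over the alternatives that did not leave out a single mouse it ran from -0.044 to 1.68.

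The level of Rgs16 moved with the thalamic neuron markers from mouse to mouse. In the mouse with the highest Rgs16 the thalamic sum was 1622 CPM, and in the mouse with the lowest it was 148 CPM. Over 18 mice, log2 values of Rgs16 and of the thalamic sum had Pearson's r of 0.894 and Spearman's rho of 0.959 (permutation tests, p = 1e-05 each, the smallest 100000 resamples can give, and adjusted p = 0.00015 over 30 relations). Without zQ175 mouse 1 and CK2a'(+/-) mouse 3, the mice farthest from the median sum, r was 0.876, and with genotype means removed it was 0.892. How many of all genes follow the thalamic sum as closely was not counted. Whether the thalamic content of a dissection sets the Rgs16 level was not tested.

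Of the 10 genes, 6 varied with the summed striatal projection neuron markers over the 18 mice, at an adjusted permutation p under 0.05 for Pearson's r and Spearman's rho: Rgs9, Rgs14, Rgs4, Rgs20, Rgs7bp and Rgs10. The sum was 3700 to 8886 CPM in WT mice, 2221 to 4202 CPM in zQ175, 6320 to 8575 CPM in CK2a'(+/-) and 3554 to 4778 CPM in zQ175:CK2a'(+/-) mice. For Rgs9, r was 0.984 and rho 0.953 (permutation p = 1e-05 each, the smallest possible, adjusted p = 0.00015). Without WT mouse 2 and CK2a'(+/-) mouse 3, r of Rgs9 was 0.981, and within genotypes it was 0.970. For Rgs14 r was 0.833 and for Rgs10 it was 0.739, without the same mice these were 0.752 and 0.636, and within genotypes they were 0.765 and 0.542. Rgs4 (0.832), Rgs20 (0.809) and Rgs7bp (0.739) had 0.699, 0.741 and 0.557 without those mice. Of all genes tested, 2.44% had an r at least as high as the 0.739 of Rgs7bp, the lowest of the 6, and 3.28% in either sign. These shares are cut at r and are not the share that would pass the tests used for the 6. An r as large in size as the -0.541 of Rgs7, which did not pass (adjusted permutation p = 0.0597), was found in 12.8% of all genes. The sum itself differed between genotypes. These 30 relations, of 10 genes to the projection neuron, cortical and thalamic sums, were chosen after seeing the data. The part of projection neuron content in the differences of Rgs7bp, Rgs9, Rgs10 and Rgs14 was not tested.

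**Figure D4:**
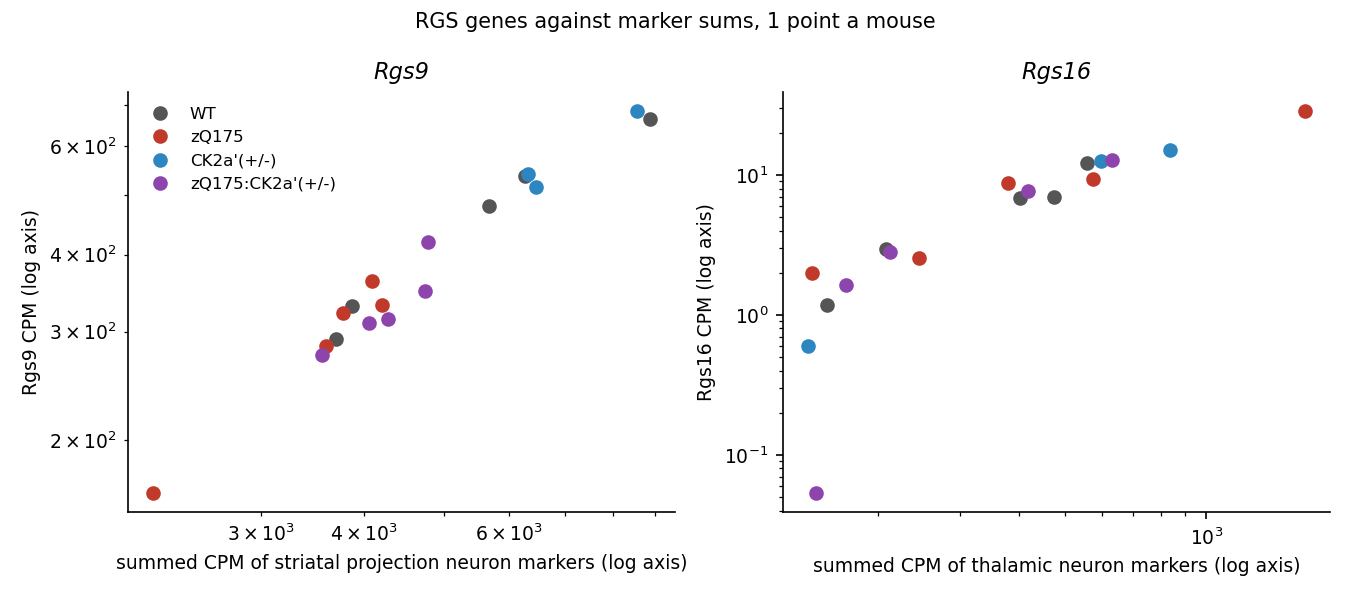
Rgs9 against the summed striatal projection neuron markers and Rgs16 against the summed thalamic neuron markers (CPM, log axes), with 1 point for each of 18 mice coloured by genotype. Rgs9 follows the projection neuron sum (Pearson's r of 0.984) and Rgs16 the thalamic sum (0.894) within and across genotypes.

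Of the remaining relations, that of Rgs2 with the cortical sum (r = -0.647 and rho = -0.614, adjusted permutation p = 0.0332 and 0.0278) was -0.470 without zQ175 mice 5 and 1 and -0.535 within genotypes. That of Rgs10 with the cortical sum (r = -0.573, rho = -0.748, adjusted permutation p = 0.0358 and 0.0036) was -0.650 without them and -0.339 within genotypes. Rgs20 was related to the cortical sum by rho (-0.659, adjusted permutation p = 0.0159) and not by r (-0.543, adjusted permutation p = 0.0728, and -0.401 within genotypes). Rgs20 and Rgs7 were related to the thalamic sum by r (-0.657 and 0.604, adjusted permutation p = 0.00945 and 0.0223) and not by rho (-0.498 and 0.370, adjusted permutation p = 0.08 and 0.205), and r was -0.429 for Rgs20 and 0.282 for Rgs7 without zQ175 mouse 1 and CK2a'(+/-) mouse 3. With genotype means removed, r with the thalamic sum was -0.746 for Rgs10, -0.762 for Rgs14 and -0.720 for Rgs9, beside -0.466, -0.487 and -0.458 over all mice and -0.136, -0.153 and -0.057 without zQ175 mouse 1 and CK2a'(+/-) mouse 3.

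The genes most like each member over the 18 libraries were found by Pearson's correlation of log2 CPM over all genes tested, as a description without a test. The libraries share genotype and tissue makeup, which these values contain. Rgs9 was most like Sh2d5 (0.984), Rgs16 like Vwc2 (0.950), Rgs7bp like Slc4a4 (0.949), Rgs20 like Dgkb (0.945) and Rgs14 like Camkv (0.934). Rgs10 was most like Gnb2 (0.916), a G protein beta subunit. Rgs4 was most like Kctd17 (0.913), Rgs7 like Hecw1 (0.873), Rgs8 like Gm15396 (0.853) and Rgs2 like Neu2 (0.835). Among the 10 themselves, Rgs4 and Rgs7bp (0.895) and Rgs9 and Rgs14 (0.833) were the most alike, and with genotype means removed Rgs9 and Rgs20 reached 0.916. For Rgs8 the highest correlation with another member was 0.186, with Rgs7, and the lowest was -0.612, with Rgs14.

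Other genes of the pathway were counted in the same fit. In zQ175 against WT mice, 0 of 10 other RGS genes passed, of 14 listed, with 2 at an unadjusted p under 0.05, and the lowest p values were those of Rgs11, an R7 gene (log2 fold change -0.46, adjusted p = 0.196 in edgeR), and Rgs5 (0.33, adjusted p = 0.331). Rgs11 passed in zQ175:CK2a'(+/-) against CK2a'(+/-) mice (-0.94, adjusted p = 0.0388 in edgeR), the single gene of this list to do so in any comparison, and is named after its values were seen. None of 13 alpha subunits passed in edgeR, with 2 at an unadjusted p under 0.05, Gnaq (0.23, adjusted p = 0.239) and Gna15 (-0.76, adjusted p = 0.268). The beta subunit Gnb5, partner of the R7 proteins, had a log2 fold change of -0.34 (adjusted p = 0.261 in edgeR), and Gnb2 had -0.33 (adjusted p = 0.104). These were the lowest p values of 15 beta and gamma subunits, none of which passed and 5 of which had an unadjusted p under 0.05.

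Of 19 receptors of striatal neurons 1 passed in zQ175 against WT, Adora2a, the adenosine receptor of indirect-pathway neurons (-1.12, adjusted p = 0.0557 in edgeR), and 8 were lower and 2 higher at an unadjusted p under 0.05. In zQ175:CK2a'(+/-) against CK2a'(+/-) mice 2 of 19 passed, both lower, Adora2a (-1.21, adjusted p = 0.0733 in edgeR) and the cannabinoid receptor Cnr1 (-1.24, adjusted p = 0.0995). None of 16 effectors passed in zQ175 against WT, with 4 at an unadjusted p under 0.05, and the lowest p values were those of the adenylyl cyclase Adcy5 (-0.56, adjusted p = 0.161 in edgeR) and the potassium channel Kcnj6 (1.10, adjusted p = 0.190). Of 13 striatal projection neuron markers 4 passed in this comparison, Scn4b, Adora2a, Penk and Ppp1r1b, with all 13 estimates below 0 and a median of -0.66.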

How the data were processed

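RNA of 18 striata was sequenced, 1 library per mouse, all pooled on 1 lane, from a stranded total RNA kit. Per the submitters' processing notes the authors used FastQC, Trimmomatic, HISAT2 2.1.0 and Subread 1.6.2 on GRCm38, and deposited raw read counts per gene, with the gene length as another value. Whether counting used the strand is not given in the sources used here. Groups came from the labels, with the columns named by a legend of the study, and none of 33 pairs of libraries within a genotype were duplicates.

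From the counts, CPM (TMM-scaled) and RPKM were computed. The tests were edgeR 4.0.16 (R 4.3.3), quasi-likelihood, filterByExpr, all 18 libraries, genotype as factor, Benjamini-Hochberg over 20914 genes, and a threshold of 0.1. DESeq2 1.42.0 was an alternative. Other alternatives were DESeq2's size factors, other filters on low counts, the compared groups alone, the replicate number as a block, Xist and marker covariates, a robust fit, a threshold of 0.05, and leaving out each library. The thalamic covariate, the fit without zQ175 mice 1 and 5, and the marker relations were added after seeing the data.

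The members and gene lists were chosen with earlier results of these data known. Named beside the members were Csnk2a2, genes of the pathway lists passing in zQ175 against WT, up to 2 per list with the lowest p where none passed, and the genes most alike. Cnr1 was also named, since it passed in zQ175:CK2a'(+/-) against CK2a'(+/-). Of the cell type lists, some markers were named and others were not. Log2 CPM used a prior count of 2. p-values measure the spread between these mice.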

Additional observations from a re-analysis of the deposited data

Results flagged for a closer look

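In 30 sets of values (each of the 10 genes in the 3 genotypes with 5 mice), 3 had a mouse far from the others by Dixon's test at the 95% level, a test that chance passes in about 1 in 20 sets. Rgs16 stood at 28.6 CPM in zQ175 mouse 1 and between 1.99 and 9.41 CPM in the other zQ175 mice. That mouse also had the highest thalamic marker sum, 1622 CPM. Rgs4 stood at 332 CPM in zQ175:CK2a'(+/-) mouse 4 and between 248 and 272 CPM in the others of that genotype. Rgs7bp stood at 401 CPM in zQ175:CK2a'(+/-) mouse 2 and between 429 and 435 CPM in the others, a gap of small size in a group that lay close together.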

How the results depend on the processing

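In zQ175 against WT mice, 1 of the 10 genes passed, and the number was 2 with DESeq2, 3 with no filter on low counts, 2 with the thalamic covariate, and 0 with the compared groups alone, with the cortical score as covariate or without both zQ175 mice 1 and 5. Leaving out 1 mouse gave 0 to 2, with 0 without WT mouse 1 or 3 or zQ175 mouse 5, and 2 (Rgs9 and Rgs10) without WT mouse 5 (211 of all genes). In zQ175:CK2a'(+/-) against WT it was 0 (3 of all genes), and 1 with DESeq2 (123), 1 with no filter (85) and 2 with the thalamic covariate (128). In zQ175:CK2a'(+/-) against CK2a'(+/-) mice it was 0 (124 of all genes), and 2 with DESeq2 (322), 4 with no filter (297), 4 with the compared groups alone (461), 4 with the thalamic covariate (592) and 2 without both zQ175 mice 1 and 5 (222). There it ranged from 0 to 2 when 1 mouse was left out, with 2 without WT mouse 2 (221 of all genes) or zQ175 mouse 1 (205) and 1 without WT mouse 5 (151), mice that are in neither group of this comparison, and the number over all genes fell to between 6 and 48 without any 1 mouse of the groups compared (6 without CK2a'(+/-) mouse 2 and 8 without CK2a'(+/-) mouse 3) and to 12 with the replicate block. In CK2a'(+/-) against WT mice it ranged from 0 to 1, with Rgs7bp passing without WT mouse 2 (9 of all genes, beside 3 with all mice). Over all genes, the number passing in zQ175 against WT was 230. It was 855 with DESeq2, 451 with no filter, 559 with the thalamic covariate and 98 with the replicate block. It was 0 with the compared groups alone, with the cortical score as covariate or without both zQ175 mice 1 and 5. Among the fits without 1 mouse it was 587 (WT mouse 2), 77 (zQ175 mouse 1), 10 (WT mouse 1) and 0 (WT mouse 3 or zQ175 mouse 5). The cause was not tested for these. The compared groups alone and the left-out mice leave fewer samples, and the number was lower in some of these fits and higher in others. The replicate numbers did not pair the mice: of 24 same-number pairs 2 had deviations correlated above 0.1 (range -0.14 to 0.12). With the replicate number as a block the counts of passing members did not change (1 in zQ175 against WT, adjusted p of Rgs10 0.0979 in edgeR), and the estimate of Rgs7 in zQ175:CK2a'(+/-) against CK2a'(+/-) was 0.0086. Of 1348 alternative values of log2 fold change, 25 had the other sign, none of them of a gene that passed, 31 newly passed and 6 no longer passed, all 6 of Rgs10 in zQ175 against WT. Without both zQ175 mice 1 and 5 the sign turned for Rgs2 in zQ175 against WT (0.0037) and for Rgs9 in zQ175 against zQ175:CK2a'(+/-) (0.021). The thalamic covariate turned Rgs16 in zQ175 against WT (-0.044) and in zQ175:CK2a'(+/-) against CK2a'(+/-) (0.097), Rgs7bp in zQ175 against zQ175:CK2a'(+/-) (0.015) and Rgs7 in zQ175:CK2a'(+/-) against CK2a'(+/-) (0.021), and the Xist covariate turned this last one (0.017). The cortical score turned Rgs8 (0.049) and Rgs14 (-0.50) in zQ175 against zQ175:CK2a'(+/-). When each mouse was left out, estimates in zQ175 against WT ranged from -0.18 to 0.046 for Rgs7bp and from -0.088 to 1.18 for Rgs16. In zQ175:CK2a'(+/-) against WT they ranged from -0.057 to 0.00015 for Rgs7, from -0.17 to 0.057 for Rgs7bp, from -0.99 to 0.15 for Rgs16 and from -0.063 to 0.26 for Rgs20. In zQ175 against zQ175:CK2a'(+/-) they ranged from -0.045 to 0.034 for Rgs7bp, from -0.079 to 0.0024 for Rgs8 and from -0.10 to 0.35 for Rgs14, and in zQ175:CK2a'(+/-) against CK2a'(+/-) from -0.044 to 0.018 for Rgs7. Counts of 1 to 610 limit what can be said of Rgs16.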
